A study of Mus musculus and Homo sapiens with 20 samples.

Results

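Ion channel genes were examined for 2 repressive chromatin marks in embryonic stem cells, blood progenitors and a leukaemia line. The genes were chosen by name alone, as the autosomal protein-coding genes whose symbols follow the pattern of potassium channels (Kcn), of sodium channel alpha subunits (Scn) or of calcium channel pore subunits (Cacna1). The rule gave 110 of 20807 autosomal protein-coding genes in mouse and 112 of 19111 in human, and 110 symbols were shared by both species, KCNJ18 and KCNK17 being human only. No filter on low values was applied, so every gene counts in every result. The name rule reached beyond voltage-gated channels. Families were set by symbol prefix and not by function. In mouse, 58 genes fell in families named for voltage-gated pores (39 potassium channel alpha subunits, silent subunits included, 10 sodium channels and 9 calcium channels). By prefix, the other 52 were 8 calcium- or sodium-activated potassium channels, 15 inward rectifiers, 14 tandem-pore potassium channels and 15 auxiliary subunits. Transcripts were not measured, so whether these genes were silent was not examined here.

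The data were CUT&Tag peak lists, CUT&Tag being an assay in which an antibody-tethered transposase cuts the DNA around a chosen mark. Both marks, H2AK119ub and H3K27me3, were mapped in embryonic stem (mES) cells of the mouse and in haematopoietic stem and progenitor cells (HSPCs), which were bone marrow cells free of lineage markers and positive for c-Kit, each with Tet2 intact (wild type, WT) or knocked out (KO). K562, a human leukaemia line, was profiled for H2AK119ub with MBD6 depleted by siRNA (siMBD6) or with a control siRNA in its place (siControl). Each of the 10 groups had 2 libraries. The mES lines were grown with LIF and inhibitors of differentiation and each genotype was a received line, so a difference between genotypes cannot be told apart from a difference between lines. HSPCs came from WT C57BL/6 mice and from Tet2-/- mice backcrossed to that strain, 6 to 8 weeks old, and the KO is carried by all tissues of the animal. The labels also describe a suspension culture of these cells with added cytokines. The K562 cells differed only in the siRNA, which leaves the MBD6 gene intact. The methods of the study speak of biological replicates for this assay. The labels do not tie the 2 libraries of a group to separate cultures or animals, so the spread between them may be partly technical.

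H2AK119ub, ubiquitin on histone H2A, is placed by Polycomb repressive complex 1, and H3K27me3, trimethylated histone H3, by Polycomb repressive complex 2. Both complexes gather at CpG-rich promoters, above all those of genes that specify other cell types and that are held off until needed. Ion channel genes set the resting potential and the firing of neurons, muscle and gland cells, and most of them have no known part in early embryonic or blood progenitor cells. TET2 oxidises 5-methylcytosine, and MBD6 is a partner of the BAP1 complex, which removes ubiquitin from H2A.

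The measure was the percent of each promoter under peaks, the promoter being 1 kb on each side of the annotated gene start (2001 bp). The lists hold positions and no read counts, so read depth is unknown and a value of 0 says only that no peak was listed. They held 85121 to 167378 peaks each, and 30.4% to 41.4% of the peaks of a library were exactly 501 bp long, so that 1 such peak covers 25.04% of a promoter. With 2 libraries against 2, an exact two-sided permutation test has 6 assignments and cannot give p below 0.3333. A promoter was therefore called higher or lower where the groups did not overlap and the nearest libraries lay at least 10 percentage points apart, which is a description and not a test. The measure has a ceiling. A promoter covered in full in a library of 1 group could not be called higher in the other group. A loss of signal that left a promoter covered in full would not be seen either. The cell type labels were checked against 6 mES markers, 8 HSPC markers and 6 K562 markers. H3K27me3 touched the promoters of 1 or 2 mES markers in mES libraries and of 4 in HSPC libraries. H2AK119ub went the other way, with 5 or 6 of the 6 mES markers in mES libraries and 3 or 4 in HSPC libraries. In each K562 library H2AK119ub touched the promoters of 5 of the 6 K562 markers. HSPC markers carried promoter peaks of either mark at 6 or 7 of 8 genes in all 16 mouse libraries, those of HSPCs included, so these markers did not set the cell types apart by presence of a peak.

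The base composition of the promoters differed widely, as 5 of them show. Among the 26 genes named by rule, they are the 3 with the highest and 2 of the 3 with the lowest ratio of observed to expected CpG over the 2001 bp, Cacna1a at 0.18 being the one not printed. The 250 bases before the annotated start on GRCm38 (mm10) are printed 5′ to 3′ on the strand of the gene, with each CpG in capitals.
Scn8a: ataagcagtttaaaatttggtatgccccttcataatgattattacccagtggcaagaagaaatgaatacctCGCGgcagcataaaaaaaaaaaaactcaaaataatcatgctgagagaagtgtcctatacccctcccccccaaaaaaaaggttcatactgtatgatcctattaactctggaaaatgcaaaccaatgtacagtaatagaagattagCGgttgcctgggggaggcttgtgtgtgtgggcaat
Kcna3: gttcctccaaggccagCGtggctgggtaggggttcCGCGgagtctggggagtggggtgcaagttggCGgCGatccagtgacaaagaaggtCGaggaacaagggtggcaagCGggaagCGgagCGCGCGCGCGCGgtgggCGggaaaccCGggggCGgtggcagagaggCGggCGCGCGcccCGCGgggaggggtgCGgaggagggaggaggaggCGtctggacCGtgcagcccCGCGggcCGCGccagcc
Cacna1h: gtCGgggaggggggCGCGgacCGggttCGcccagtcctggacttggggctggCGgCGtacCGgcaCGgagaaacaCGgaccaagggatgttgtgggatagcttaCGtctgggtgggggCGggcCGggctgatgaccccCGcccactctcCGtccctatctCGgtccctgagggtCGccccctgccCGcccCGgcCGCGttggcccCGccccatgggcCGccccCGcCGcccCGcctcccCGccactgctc
Kcnma1: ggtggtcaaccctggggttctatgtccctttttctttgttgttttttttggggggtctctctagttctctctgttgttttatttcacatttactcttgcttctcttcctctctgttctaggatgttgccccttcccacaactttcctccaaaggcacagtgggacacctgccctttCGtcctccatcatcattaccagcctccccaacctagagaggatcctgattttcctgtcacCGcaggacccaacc
Kcnn4: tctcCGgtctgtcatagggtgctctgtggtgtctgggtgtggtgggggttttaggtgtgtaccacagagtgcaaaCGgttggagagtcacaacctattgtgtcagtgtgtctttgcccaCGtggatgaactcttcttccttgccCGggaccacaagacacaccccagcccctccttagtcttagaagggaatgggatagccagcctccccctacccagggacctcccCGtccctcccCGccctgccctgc
Scn8a, a sodium channel of neurons, lies at chr15:100869608-100869857 with a ratio of 0.80, most of its CpGs falling outside the bases printed. Kcna3, the voltage-gated potassium channel best known from T cells, lies at chr3:107035919-107036168 with 30 printed CpGs and a ratio of 0.78. Cacna1h, a low-voltage-activated (T-type) calcium channel, lies at chr17:25433784-25434033 on the minus strand with 27 printed CpGs and a ratio of 0.76. Kcnma1, the pore of the large-conductance calcium-activated potassium channel, lies at chr14:24014492-24014741 on the minus strand with 2 printed CpGs and a ratio of 0.11. Kcnn4, the intermediate-conductance calcium-activated channel of blood cells and epithelia, lies at chr7:24370013-24370262 with 6 printed CpGs and a ratio of 0.20. The annotated start is the outermost one, and genes with inner starts can have a CpG-rich promoter elsewhere.

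In mES cells, most of the ion channel genes carried both marks at the promoter. H2AK119ub peaks touched the promoter in both WT libraries at 97 of 110 genes, where 65.6% of all genes had one, and in both KO libraries at 100, where the share of all genes was 65.9%. H3K27me3 peaks did so at 92 genes in WT and 93 in KO, against 45.7% and 35.8% of all genes. The mean promoter coverage in WT was 71.2% (H2AK119ub) and 77.6% (H3K27me3), while over all genes it was 44.01% and 33.3%. Both marks were present in both WT libraries at 90 of the 110 genes (81.8%), and at 42.7% of all genes. At 11 genes neither mark was listed in both libraries.

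In HSPCs the marks parted. H3K27me3 was listed in both libraries at 85 genes in WT and 88 in KO, against 56.0% and 56.6% of all genes. H2AK119ub was listed at 65 genes (59.1%) in WT, below the 63.1% of all genes, and at 80 in KO, where all genes reached 69.4%. In K562, H2AK119ub was listed at 53 of 112 genes in siControl and 62 in siMBD6 cells, with 28.1% and 36.7% of all genes. The plot of shares by library shows that only the WT HSPC H2AK119ub libraries placed the ion channel genes below all genes.

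**Figure D1:**
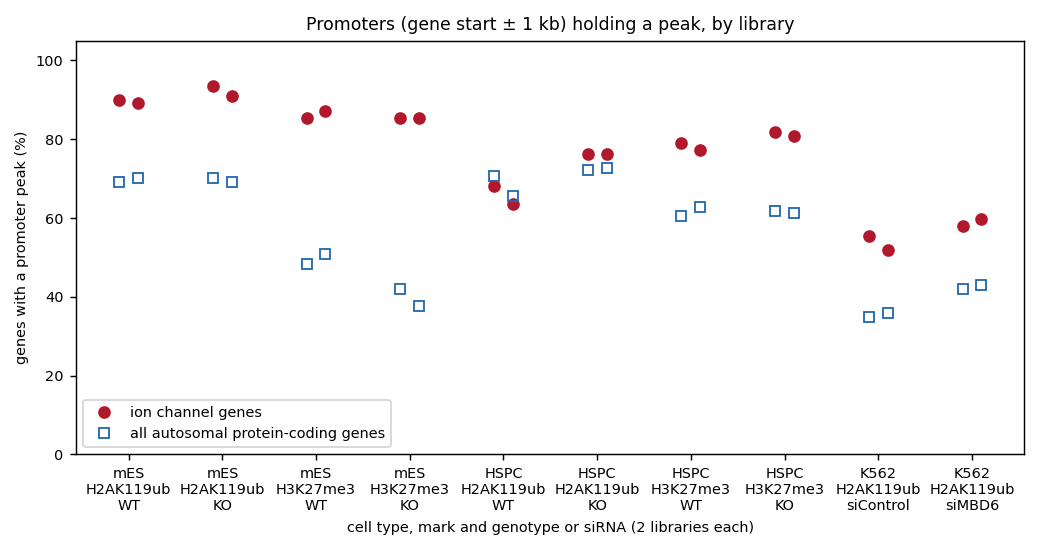
Percent of ion channel genes (filled circles) and of all autosomal protein-coding genes (open squares) with a peak within 1 kb of the start, 1 symbol per library. The ion channel genes lie between 51.8% and 93.6% and are above all genes in each library but the 2 of H2AK119ub in WT HSPCs, where they are at 68.2% and 63.6% against 70.6% and 65.6%.

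The voltage-gated potassium alpha subunits, whose channels repolarise excitable cells, were the family most often under H3K27me3 in WT cells. In WT mES cells 38 of 39 had H2AK119ub and 39 of 39 had H3K27me3 in both libraries, and in WT HSPCs 37 of 39 kept an H3K27me3 peak while 26 had H2AK119ub. All 14 tandem-pore channels, which carry background potassium currents, had H2AK119ub in WT mES cells, and 9 had it in WT HSPCs. Inward rectifiers, which hold the resting potential, stood at 12 of 15 and 9 of 15, and auxiliary subunits at 14 of 15 and 8 of 15. Sodium channels, which start the action potential, were the least marked family, with 6 of 10 for each mark in WT mES cells and 3 of 10 for each in WT HSPCs. Calcium channel pores had H2AK119ub at 7 of 9 in WT mES cells and 6 of 9 in WT HSPCs. In siControl K562 cells the families ran from 2 of 10 for sodium channels to 5 of 9 for calcium channels.

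**Figure D2:**
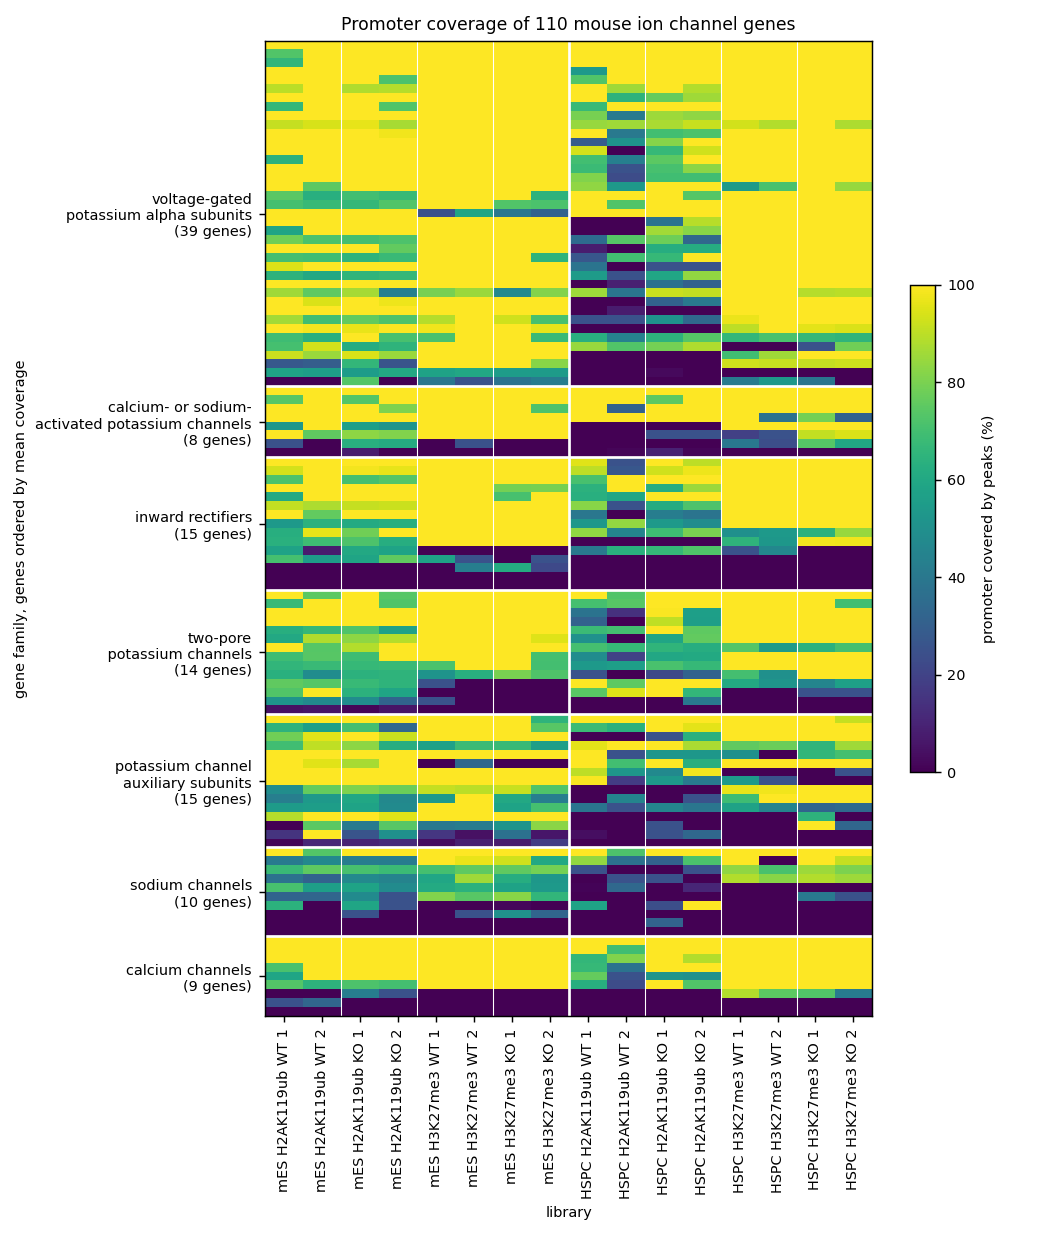
Promoter coverage of the 110 mouse genes (rows, grouped by family and ordered by mean coverage) in the 16 mouse libraries (columns), from 0% (dark) to 100% (light). H3K27me3 columns are close to full over most of the 39 voltage-gated potassium alpha subunits in both cell types, whereas the H2AK119ub columns of HSPCs hold many dark rows.

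Some genes were marked or bare throughout. A promoter peak was present in all 16 mouse libraries at 55 genes (50%), where 21.3% of all genes had one, and 45 promoters (40.9%) were covered in full by H3K27me3 in all 8 libraries of that mark, where 8.14% of all genes were. Cacna1g (T-type calcium channel), Kcnh3 (an ether-a-go-go type potassium channel of the forebrain) and Kcnn1 (a small-conductance calcium-activated channel) were covered in full by both marks in all 16 libraries. Cacna1d, Kcnj13, Kcnj16 and Scn3a had no promoter peak in any of the 16. Kcnj13 also had no peak anywhere in its span.

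Coverage by peaks around these genes reached beyond the promoter. The widths of single peaks at these genes were not measured. In mouse these genes are also longer, with a median span of 47.3 kb against 17.6 kb for all genes. In WT mES cells H3K27me3 lay over the start of 82.3% of the genes and still over 60% at 5 kb downstream, while over all genes these shares were 43.1% and 17.9%. In WT HSPCs the same mark stood at 73.2% and 51.8%, against 52.3% and 16.5%. H2AK119ub in WT HSPCs lay over 44.1% of the starts, below the 56.0% of all genes, but at 5 kb downstream over 32.7%, above the 21.7% of all genes. In siControl K562 cells the highest share of ion channel genes, 37.9%, was 1500 bp downstream of the start, where the start itself was covered in 21.4%.

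**Figure D3:**
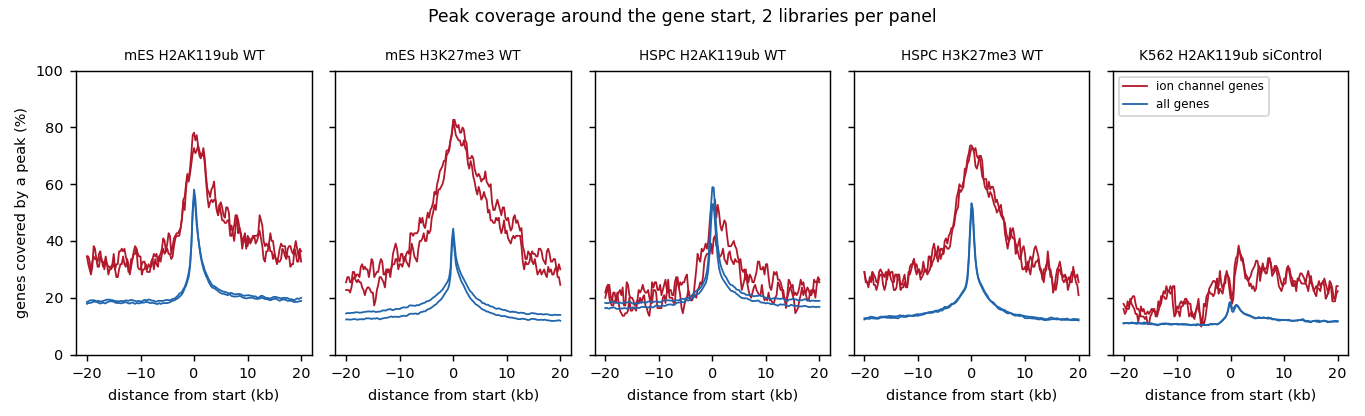
Percent of genes with a peak at each distance from the gene start (kb, downstream positive) in the WT and siControl libraries, with ion channel genes and all genes as separate lines, 1 line per library. The lines of ion channel genes are broad in the mouse panels, and in K562 their highest point, 37.9% on average, lies inside the gene.

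CACNA1H shows the K562 pattern in 1 gene. Its promoter was covered to 21.4% and 19.0% in siControl against 23.9% and 19.3% in siMBD6 cells, while its 68.7 kb span was covered to 91.8% and 94.5% on average. It was the ion channel gene with the highest span coverage in siControl cells among those of at least 5 kb, ahead of KCNK16 at 91.6%, KCNH3 at 90.2%, CACNA1G at 89.1% and KCNK17 at 87.3%.

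In mouse, short genes led by span coverage. Kcnj11 (the pore of the ATP-sensitive channel of pancreatic beta cells), Kcnk15 and Kcns1 were covered in full by both marks in both WT mES libraries, and Kcnj8 and Kcns2 by H3K27me3. Kcnab3 at 99.5% and Kcng4 at 97.8% completed the leading 5 for H2AK119ub. In WT HSPCs the highest H2AK119ub span coverages were 97.1% at Kcnj11, 92.4% at Kcnn1, 90.8% at Kcnk4, 89.6% at Kcnj9 and 89.0% at Kcnh4. H3K27me3 covered Kcna1, Kcnk15 and Kcnk4 in full in these cells, and Cacna1h to 99.6%.

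The CpG content of the promoter was compared with the marks. A promoter was counted as CpG-rich with a ratio of at least 0.6 and a GC content of at least 50%, which 30 of the 110 genes met (27.3%, against 30.8% of all genes). In both WT mES libraries H2AK119ub was listed at all 30 CpG-rich and 67 of the 80 CpG-poor promoters (83.8%), where over all genes the shares were 82.7% and 57.97%. H3K27me3 was listed at the same 30 and at 62 of the 80 (77.5%), against 53.1% and 42.4% of all genes. In WT HSPCs H2AK119ub was at 28 of the 30 CpG-rich (93.3%) and 37 of the 80 CpG-poor promoters (46.3%), close to the 92.6% and 49.98% of all genes. In KO HSPCs the counts were 29 (96.7%) and 51 (63.8%), against 97.4% and 56.96% of all genes. H3K27me3 in WT HSPCs was at 28 (93.3%) and 57 (71.3%), where all genes had 81.3% and 44.7%. In K562, 52 of 112 promoters were CpG-rich, and in siControl cells 26 of these (50%) and 27 of the 60 others (45%) carried H2AK119ub, with 25.97% and 30.01% of all genes. Across genes, which are not independent replicates, Spearman's rho between CpG ratio and H2AK119ub coverage was 0.33 in WT mES cells, 0.47 in WT HSPCs and 0.00 in siControl K562 cells, and over all genes it was 0.34, 0.55 and -0.09.

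The WT libraries of both cell types were compared next. For H2AK119ub, 36 of the 110 promoters were called lower in HSPCs than in mES cells and 1 higher, while 13.9% of all genes were called lower and 16.5% higher. In the mES libraries 38 and 47 of the 110 were covered in full and could not be called higher in HSPCs. The lists of mES cells were also longer, with 167378 and 162746 peaks against 133202 and 112734 in HSPCs. A longer list cannot be told apart from a wider mark. Of the 36, 17 had no listed peak in either HSPC library. The median difference over the 110 genes was -21.6 percentage points, and over all genes 0. All 65 genes with H2AK119ub in both WT HSPC libraries also had it in both WT mES libraries. Another 32 had it in both WT mES libraries but in only 1 WT HSPC library or in none. Without WT replicate 1 of HSPCs, 58 were called lower, with 23.2% of all genes.

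The widest gaps were in voltage-gated potassium alpha subunits. Kcns3, an electrically silent subunit that modifies other potassium channels, was covered to 100% in both mES libraries and 0% in both HSPC libraries. Kcnv1, another silent subunit, was at 100% and 98.1% in mES cells and 0% in both HSPC libraries. Kcnh5, an ether-a-go-go channel, was at 100% and 94.2% against 0% and 0%. The groups were fully apart at each of these. Kcna5, a repolarising channel of the atrium, was at 100% in both mES libraries and at 0% and 7.60% in HSPCs. Kcna6 was at 100% in both mES libraries and at 8.15% and 0% in HSPCs. Kcnh4 was the 1 gene called higher, at 74.5% and 63.2% in mES cells and 100% in both HSPC libraries.

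For H3K27me3 the same comparison called 17 promoters lower and 6 higher in HSPCs, with 12.8% of all genes lower and 24.1% higher. Here 71 and 76 of the ion channel promoters were covered in full in the mES libraries and could not be called higher in HSPCs. The mES lists were longer for this mark too, with 109604 and 120483 peaks against 85121 and 85694 in HSPCs. Auxiliary subunits held 6 of the 17. Kcna3, Kcnip3 (a calcium-binding protein also known as a transcriptional repressor) and Kcnip4 were each covered to 100% in both mES libraries and 0% in both HSPC libraries. Kcnn2, a small-conductance calcium-activated channel, was at 100% in both mES libraries and at 18.8% and 25.04% in HSPCs. Scn10a, a sodium channel of pain-sensing neurons, was at 81.2% and 74.2% in mES cells and 0% in both HSPC libraries.

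Cacna1a, the P/Q-type calcium channel of nerve terminals, went the other way, from 0% in both mES libraries to 88.5% and 74.9% in HSPCs. Kcnip2 was at 0% and 33.4% in mES cells and 100% in both HSPC libraries. Kcnk5 and Kcnj14 had narrower gaps, and the groups did not overlap at any of the 6.

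Genes with H3K27me3 but without H2AK119ub, each judged in both libraries, numbered 2 of 110 in WT mES cells and 26 of 110 (23.6%) in WT HSPCs, where 8.11% of all genes had this state. In KO HSPCs there were 14 (12.7%), with 4.71% of all genes. Kcna1, the shaker-type channel of axons, belonged to it, with H3K27me3 at 100% in all 8 libraries and H2AK119ub at 100% in the 4 mES libraries but at 0% and 9.20% in WT HSPCs. Kcnma1 had H3K27me3 at 100% in all 8 libraries, and H2AK119ub at 52.9% and 100% in WT mES cells but 0% in all 4 HSPC libraries. The plot of both marks places Kcna1 and Kcnma1 at the lower right in WT HSPCs.

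**Figure D4:**
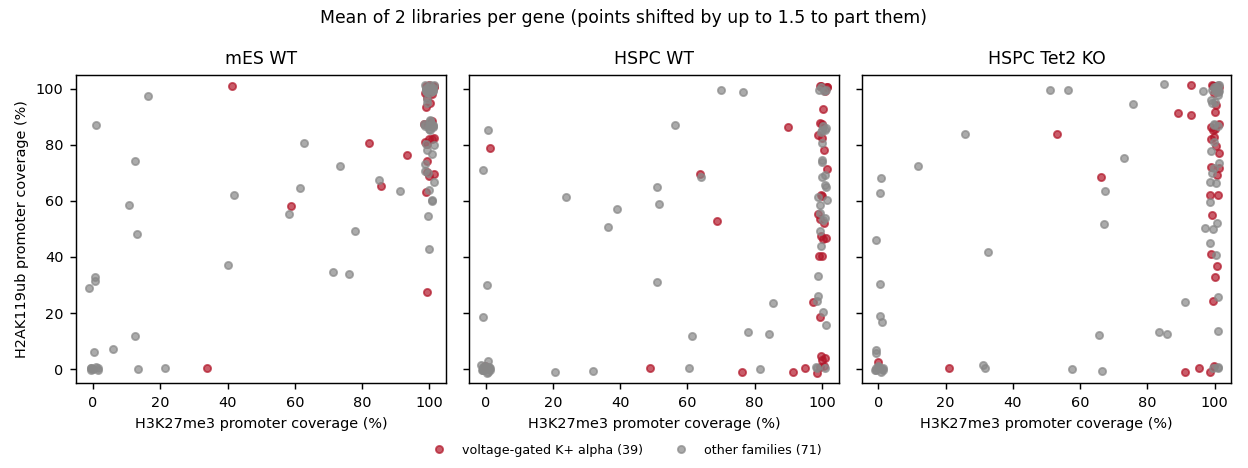
Promoter coverage by H2AK119ub (vertical, %) against H3K27me3 (horizontal, %) for each of the 110 mouse genes, as the mean of 2 libraries, in WT mES cells, WT HSPCs and Tet2 KO HSPCs, with the 39 voltage-gated potassium alpha subunits in red. In WT mES cells most points sit at the upper right, and in WT HSPCs many at full H3K27me3 coverage spread down to 0% H2AK119ub.

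In mES cells, few of these promoters were called different between Tet2 KO and WT. For H2AK119ub, 38 and 47 of them were covered in full in the WT libraries and could not be called higher. Whether the mark changed in amount at these was not tested. For H2AK119ub, 1 was called lower and 2 higher, with 3.22% and 3.38% of all genes. Kcnt2, a sodium-activated potassium channel, was at 25.04% and 0% in WT against 63.0% and 61.7% in KO. Cacna1a was at 0% in both WT libraries and 42.4% and 25.04% in KO. Cacna1c, the L-type calcium channel of the heart, was at 25.04% and 33.1% in WT and 0% in both KO libraries, so that both calcium channel calls rest on few peaks. Leaving out libraries moved these counts most, to 8 lower without KO replicate 1, with 8.50% of all genes, and to 15 higher without WT replicate 2, with 9.54%. The peaks over all spans of these genes summed to 3101 and 3008 kb in WT against 3076 and 2920 kb in KO, a change of -1.86% with groups that overlapped, and of -1.90% over all genes.

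For H3K27me3 in mES cells, 3 promoters were called lower and 0 higher, with 11.0% and 0.956% of all genes, by the gap rule alone and with no test. The ceiling bears on these counts. In the WT libraries 71 and 76 of the ion channel promoters were covered in full, while the median over all genes was 0% and 13.8%. The counts therefore do not show that the amount of the mark held at these promoters. Kcne1, the small partner of the cardiac channel Kcnq1, was at 100% in both WT libraries and at 57.9% and 70.4% in KO. Kcng3, a silent subunit, was at 100% in both WT libraries and at 73.0% and 71.7% in KO. Kcnj11 was at 100% in both WT libraries and at 79.2% and 79.4% in KO. None of the 3 lost its peak. KO replicate 2 had fewer peaks than the other 3 libraries, and without it 6 were lower and 4 higher, with 12.9% and 3.57% of all genes. Without KO replicate 1, 14 were lower and 1 higher, with 19.8% and 1.56% of all genes. The summed span coverage was 2827 and 3247 kb in WT against 3210 and 2457 kb in KO, a change of -6.72% with groups that overlapped, and of 5.69% without KO replicate 2. Over all genes the change was -10.75%.

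In HSPCs, loss of Tet2 went with more of these promoters lying under H2AK119ub peaks. The study reports the other direction for the amount of the mark, a loss of H2AK119ub caused by Tet2 KO in HSPCs. Its levels were scaled by depth and spike-in, which peak positions cannot give, so the 2 measures are unlike. The gap rule called 19 of 110 higher (17.3%) and 0 lower, with 9.22% of all genes higher and 1.86% lower. The mean promoter coverage was 48.7% and 37.8% in the WT libraries and 55.6% and 57.2% in the KO libraries, while over all genes it was 47.0% and 41.9%, then 50.1% and 50.4%. The 19 were 7 voltage-gated potassium alpha subunits, 5 tandem-pore channels, 3 auxiliary subunits, 2 calcium channels, 1 inward rectifier and 1 calcium-activated channel, and no sodium channel. In 5 of them (Kcnd2, Kcns3, Kcnh5, Kcnab1 and Kcnn2) both WT libraries were at 0%.

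Kcnd2, the A-type potassium channel of dendrites, was at 0% in both WT libraries and at 86.3% and 82.4% in KO. Kcna6 was at 8.15% and 0% in WT against 62.1% and 61.9% in KO. Kcns3 was at 0% in both WT libraries and at 37.9% and 89.4% in KO. At these 3 genes the nearest libraries lay 82.4, 53.7 and 37.9 percentage points apart. Kcnj12, an inward rectifier of muscle, was at 63.1% and 59.1% in WT and 100% in both KO libraries. Cacna1h was at 67.2% and 37.9% in WT and 100% in both KO libraries.

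Members of the fixed list behaved unevenly. Kcna1 was at 0% and 9.20% in WT against 37.1% and 31.1% in KO. Kcnk1, a tandem-pore channel, was at 31.1% and 0% in WT against 90.5% and 56.2% in KO, and Kcnk3, an acid-sensitive one, at 54.1% and 56.0% against 71.3% and 67.1%. Among the rest of the list, Kcna2 overlapped, with 100% and 64.5% in WT against 76.4% and 85.7% in KO. Kcnma1, Cacna1a and Cacna1c stayed at 0% in all 4 libraries. Kcnc1 (fast-spiking neurons) and Kcnh2 (the cardiac hERG channel) were at 100% in both KO libraries but were not called, since 1 WT library of each was at 100% too, the other being at 54.1% and 67.4%. Kcnq1 overlapped, with 100% and 40.5% in WT against 69.6% and 72.1% in KO, and Kcnip3 did so too, with 90.01% and 52.9% against 47.6% and 98.1%.

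The WT libraries were uneven. WT replicate 2 had 112734 peaks, the fewest of the 4, and 70 of its ion channel promoters had a peak, where replicate 1 had 75. Without WT replicate 2 the counts were 26 higher and 9 lower, with 15.1% and 7.72% of all genes, and without WT replicate 1 they were 48 and 4, with 24.7% and 5.90%. Leaving out a library only loosens the rule, so these counts could not fall. With a gap of 25 percentage points 12 of the 19 were called, and 4.34% of all genes. The summed span coverage was 1384 and 996 kb in WT against 1431 and 1465 kb in KO, a change of 21.7% with separated groups, but of 4.62% without WT replicate 2 and 45.3% without WT replicate 1. Over all genes it changed by 7.64% with groups that overlapped.

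Other readouts of the 19 genes were looked at in libraries that did not enter this comparison. H3K27me3 was listed at 18 of the 19 in both WT HSPC libraries and covered 16 in full (84.2%), while of the 91 other ion channel genes it was listed at 67 and covered 44 in full (48.4%). Over all genes the same split was present, with H3K27me3 listed at 70.6% of the genes called higher and 54.6% of those not called, and covering 31.6% and 14.9% in full. H2AK119ub was listed in both WT mES libraries at all 19, and at 78 of the 91 others (85.7%), while over all genes the shares were 80.5% and 63.8%.

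For H3K27me3 in HSPCs, 12 promoters were called higher (10.9%) and 4 lower (3.64%), with 3.11% and 3.93% of all genes. Kcnn2 was at 18.8% and 25.04% in WT against 90.7% and 94.3% in KO. Kcnmb3, a subunit of the large-conductance calcium-activated channel, was at 0% in both WT libraries and at 100% and 33.1% in KO. Kcnj3, a G-protein-gated inward rectifier, was at 64.9% and 53.0% in WT against 98.3% and 97.9% in KO. The KO libraries agreed closely at Kcnn2 and Kcnj3 but not at Kcnmb3. Kcnk18, a tandem-pore channel of sensory neurons, was at 70.2% and 50.2% in WT and 100% in both KO libraries. Kcna3 was at 0% in both WT libraries and at 25.04% and 78.3% in KO.

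The 4 lower promoters were Kcnj14, Kcne3, Kcne1 and Kcna7. Kcnj14, an inward rectifier, was at 25.1% and 46.4% in WT and 0% in both KO libraries. Kcne3, an auxiliary subunit of epithelial channels, was at 54.1% and 25.04% in WT and 0% in both KO libraries. Kcne1 was at 57.6% and 45.3% in WT against 32.2% and 34.1% in KO. Kcna7, at 100% in both WT libraries and 89.0% and 89.5% in KO, had the narrowest gap. The number of higher promoters was 7 with a gap of 25 percentage points, with 1.5% of all genes, and also 7 with a promoter of 2 kb on each side, with 2.63%. Without KO replicate 1, 7 were called lower, with 8.80% of all genes.

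**Figure D5:**
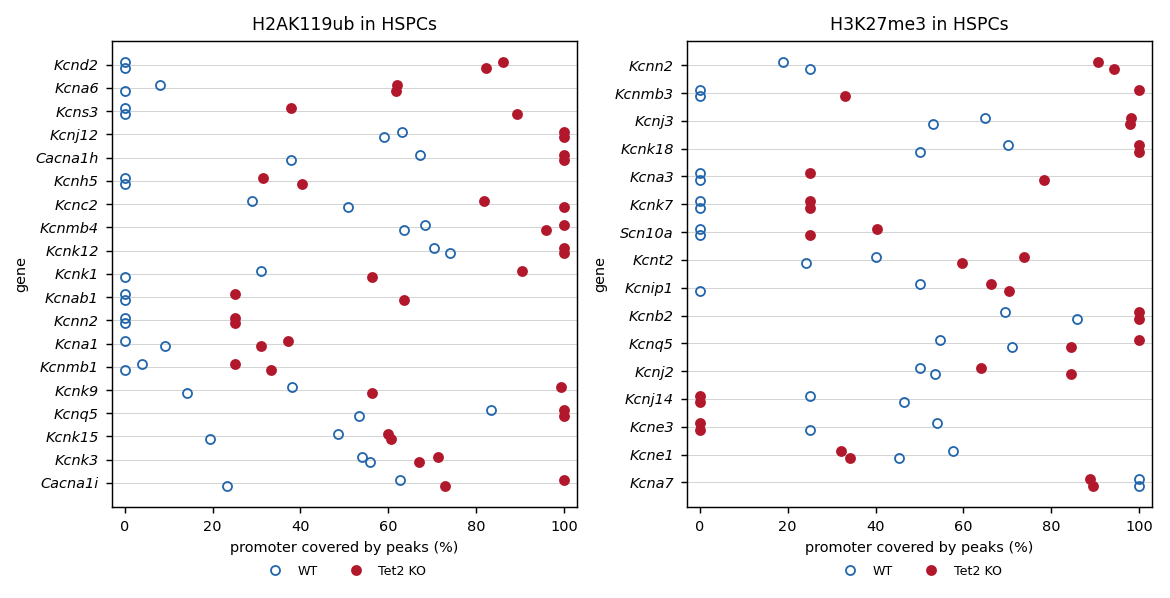
Promoter coverage (%) of each ion channel gene called in Tet2 KO against WT HSPCs, for H2AK119ub (19 genes, left) and H3K27me3 (16 genes, right), with WT libraries as open and KO libraries as filled circles. On the left all KO points lie to the right of the WT points, and on the right the last 4 genes, from Kcnj14 to Kcna7, have the opposite order.

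H3K27me3 also lay over more of the gene bodies in KO HSPCs. The summed span coverage was 2315 and 2341 kb in WT against 2882 and 2607 kb in KO, a change of 17.9% with separated groups, whereas over all genes the change was 1.84% with groups that overlapped. A few long genes made up most of it. The 5 with the widest gain, taken after the values were seen, held 72.3% of the net gain of 416.4 kb, and 57 of the 110 genes gained, 41 lost and 12 did not change. Cacna1c, with a span of 609.2 kb, was covered over 231.8 and 235.0 kb in WT against 328.5 and 289.9 kb in KO, with no promoter peak in any H3K27me3 library. Kcnd3, a cardiac and neuronal A-type channel, had 21.5 and 22.6 kb in WT against 99.7 and 84.4 kb in KO. Kcnma1 had 71.1 and 77.1 kb in WT against 154.6 and 117.9 kb in KO. Kcnh1 and Cacna1e were the other two, and the groups were apart at all 5.

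The gain of H2AK119ub span coverage in KO HSPCs was spread over more genes. Here 86 genes gained, 16 lost and 8 did not change, and the 5 widest gains (Kcnq1, Kcnip1, Cacna1c, Scn8a and Kcnn3) held 27.5% of the net gain of 257.8 kb. Kcnq1 was covered over 107.1 and 79.2 kb in WT against 110.6 and 108.3 kb in KO, so that WT replicate 1 lay close to the KO libraries.

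Of the 110 ion channel promoters, 4 (3.64%) were called in more than 1 comparison of KO against WT in the mouse cells. Of all genes, 5.17% were. Kcnn2 and Kcnq5 (a subunit of the M-current channels) were called higher for both marks in HSPCs. Kcnt2 was called higher for H2AK119ub in mES cells and for H3K27me3 in HSPCs. Kcne1 was called lower for H3K27me3 in both cell types. These comparisons share no library, unlike the comparison of cell types, which uses the same WT libraries.

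Genes with a known part in blood cells were given beside the rest. Kcnn4 had H2AK119ub over 100% of its promoter in all 8 mouse libraries, and H3K27me3 at 100% in all 4 mES libraries, at 100% and 37.8% in WT HSPCs and at 79.0% and 31.4% in KO HSPCs. Kcna3 had H2AK119ub at 84.4% and 72.9% in WT against 79.2% and 88.1% in KO HSPCs, and in K562 it had none but 1.20% in 1 siMBD6 library. Kcnj2, an inward rectifier of muscle and macrophages, had H3K27me3 at 50.0% and 53.6% in WT against 64.0% and 84.4% in KO HSPCs. Kcnab2, a beta subunit of shaker channels, was covered in full by H2AK119ub in all 8 mouse libraries, and its promoter window overlaps that of Nphp4.

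Sodium channels on the fixed list differed widely in coverage. Scn2a, a sodium channel of neurons with a CpG ratio of 0.34, had no promoter peak but 1 of H2AK119ub in a KO HSPC library, at 31.7%. Scn1a, another neuronal channel, had H3K27me3 at 70.6% to 85.3% in the 8 libraries and H2AK119ub at 68.0% to 75.3% in mES cells, but 0% or 25.04% in HSPCs. Scn8a differed between the replicates of H3K27me3 in WT HSPCs, at 100% and 0%, so no difference could be read from it.

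Depletion of MBD6 in K562 cells went with wider coverage by H2AK119ub peaks at these genes, as over all genes. The gap rule called 15 of 112 promoters higher (13.4%) and 1 lower, with 7.20% and 0.654% of all genes. The mean promoter coverage was 25.3% and 25.1% in siControl against 31.6% and 33.2% in siMBD6 cells, while over all genes it was 15.7% and 16.4%, then 20.5% and 21.1%. With peaks of at least 1 kb, or with a gap of 25 percentage points, 6 were called higher, with 4.44% and 4.07% of all genes. Without siControl replicate 1 there were 28 higher and 5 lower, with 13% and 4.26% of all genes. Without siControl replicate 2 there were 23 and 3, with 13.6% and 3.51%.

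KCNH6, an ether-a-go-go related channel, was at 51.2% and 26.99% in siControl and 100% in both siMBD6 libraries. KCNA5 was at 0% in both siControl libraries and at 42.7% and 34.3% in siMBD6. CACNA1E, the R-type calcium channel, was at 28.1% and 36.5% in siControl against 70.0% and 70.7% in siMBD6. These 3 had the widest gaps, of 48.8, 34.3 and 33.4 percentage points. KCNS3 was at 0% in both siControl libraries and at 31.3% and 32.9% in siMBD6. KCNK13, a tandem-pore channel of microglia, was at 1.40% and 0% in siControl against 47.2% and 27.6% in siMBD6. KCNJ12 and KCNJ18, which are closely related copies, were also called higher. Their promoter windows differ, with CpG ratios of 0.76 and 0.24. Whether reads of these 2 genes could be placed with certainty was not examined.

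Over all ion channel genes the covered span was 1897 and 1861 kb in siControl against 2374 and 2516 kb in siMBD6, a change of 30.1% with separated groups, and over all genes 35.2%. Of the 112 genes 83 gained, 5 lost and 24 did not change. SCN1A, SCN2A, KCND2 and KCNJ2 had no peak over promoter or span in any of the 4 libraries.

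The auxiliary subunits of sodium and calcium channels and the Hcn pacemaker channels, 24 genes outside the name rule, gave the following counts. For H2AK119ub in HSPCs 7 were called higher and 0 lower in KO, and for H3K27me3 0 higher and 1 lower. In mES cells the counts were 1 higher and 1 lower for H2AK119ub, and for H3K27me3 they were 0 and 6. In K562 3 were higher and 0 lower. Between WT cell types, 9 were lower and 1 higher in HSPCs for H2AK119ub, while for H3K27me3 the counts were 2 and 2.

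Some promoters are not independent of each other. Several genes lie in clusters with starts within 100 kb, among them Kcna1 with Kcna6 and Kcna3 with Kcna2, so that 1 wide domain can reach more than 1 of them. Kcna1 and Kcna6 were both among the 19 called higher for H2AK119ub in KO HSPCs.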

How the data were processed

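CUT&Tag peak lists of 20 libraries were used as the authors deposited them. Each list gives other values than counts, namely the chromosome, start and end of each peak, with no score, signal or p-value. Per the study's methods and the submitters' processing notes, read trimming was by Trimmomatic 0.39 and alignment by bowtie2 2.4.1, the reference being mm10 or hg38 with the Drosophila genome added for spike-in DNA, and the authors removed duplicates with Picard. The methods name MACS2 in broad mode for peak calling and the notes name HOMER 4.9, whose role is not given in the sources used here. A list of positions carries no spike-in scaling, and depth is unknown, so no interval for counting error could be given. More reads can lengthen a list, which cannot be told apart from a wider mark.

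Libraries were assigned to groups, and numbered, by their labels. Gene starts and spans were those of GENCODE M21 (mm10) and 44 (hg38), and printed sequence was read from GRCm38.p6. Bases under peaks were counted with numpy 2.4.6 and pandas 2.3.3 (Python 3.11.15). On simulated data the counted bases were checked against a base-by-base count, and the calling rule against planted changes. A promoter was 1 kb on each side of the start. Calls used the rule of non-overlap with a gap of 10 percentage points, over all autosomal protein-coding genes. Alternatives were peaks of at least 1 kb, a promoter of 2 kb on each side, the best covered start of any coding transcript, at least 50% of the promoter covered, a gap of 25 percentage points, lists of equal length in file order, leaving out each library, a replicate block and, in mES cells, leaving out chromosomes 6 and 13. Leaving out a library for the counts of promoters with a peak, and a crossed pairing, were added after the data were seen.

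The genes named were up to 5 per comparison and direction with the widest gap, a fixed list of 26 channels, and the 5 with the highest span coverage per mark and cell type among spans of at least 5 kb. Some of the genes that this rule gives are not reported here by name, but they stay in every count. The ion channel genes and all lists were chosen with earlier results of these data known. Columns of comparisons made by the authors were not present in the lists used here.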

Additional observations from a re-analysis of the deposited data

Results flagged for a closer look

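Both X-linked genes that match the name rule, Cacna1f (a calcium channel of photoreceptors) and Kcnd1 (an A-type potassium channel), lie outside the autosomal comparisons, and over their spans both stood higher in KO than in WT HSPCs. H3K27me3 covered 41.0% and 37.3% of the Cacna1f span in WT and 77.6% and 81.9% in KO, a difference of 40.6 percentage points. It covered 0% of the Kcnd1 span in both WT libraries and 37.4% and 27.5% in KO, a difference of 32.4 points. H2AK119ub covered 5.77% and 1.78% of Cacna1f in WT and 15.7% and 35.7% in KO, a difference of 21.9 points, and 9.34% and 3.13% of Kcnd1 in WT and 14.9% and 29.5% in KO, a difference of 15.9 points. At the promoter, H3K27me3 was also higher, at 50.97% and 55.2% in WT against 69.4% and 72.6% in KO for Cacna1f, and at 0% in both WT libraries against 100% and 68.3% for Kcnd1. The H2AK119ub promoter values overlapped at both genes, with 0% in both WT libraries against 0% and 32.2% for Cacna1f, and 25.04% and 0% against 100% and 10.4% for Kcnd1. In mES cells the spans overlapped at Cacna1f for both marks, and Kcnd1 had no H3K27me3 in any of the 4 libraries. H2AK119ub at the Kcnd1 promoter in mES cells was 0% and 31.4% in WT and 68.9% and 40.9% in KO. Why both genes differed was not tested. The study used mice of both sexes, and the sex behind each library was not known here. At X-linked genes, a difference in sex between the groups cannot be told apart from a difference in genotype.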

How the results depend on the processing

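Of 237 alternative values over 29 results, 176 stayed within 1.5 times a count or within the spread of a percent change. The other 61 moved beyond that. A reversal could be recorded only for changes in covered span with separated groups, where there were 0, and never for a count. The cause of the moves was not tested. With peaks of at least 1 kb, the mES H2AK119ub calls were 0 lower and 1 higher, 1 promoter was higher for mES H3K27me3, 2 were lower for HSPC H3K27me3, K562 had 0 lower and 6 higher, and 34 genes had a promoter peak in both siControl libraries. With a promoter of 2 kb on each side, there were 2 lower and 4 higher for mES H2AK119ub, 5 lower and 2 higher for mES H3K27me3, 7 higher for HSPC H3K27me3, and 3 higher in WT HSPCs than mES cells for H2AK119ub. With the best covered coding start, 1 was higher for mES H2AK119ub and 0 lower in K562. With a gap of 25 percentage points, 12 were higher for HSPC H2AK119ub, 2 lower and 7 higher for HSPC H3K27me3, and 0 lower and 6 higher in K562. Lists of equal length gave 1 higher for mES H3K27me3, and leaving out chromosomes 6 and 13 gave 0 lower for mES H2AK119ub. Promoters covered over at least 50% in both libraries numbered 37 for H2AK119ub in WT HSPCs, 17 in siControl and 34 in siMBD6 cells.

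Leaving out 1 library at a time gave these ranges. For KO against WT, mES H2AK119ub had 1 to 8 lower and 3 to 15 higher, mES H3K27me3 6 to 14 lower and 1 to 4 higher, HSPC H2AK119ub 1 to 9 lower and 24 to 48 higher, and HSPC H3K27me3 5 to 7 lower and 13 higher. K562 had 3 to 5 lower and 20 to 28 higher. WT HSPCs against mES cells had 41 to 58 lower and 2 to 5 higher for H2AK119ub, and 17 to 20 lower and 7 to 11 higher for H3K27me3. A call with 1 library left in a group has a looser rule, so these counts cannot fall below those with all libraries. The change in covered span over the ion channel genes ran from -4.42% to 0.699% (mES H2AK119ub), -19.1% to 5.69% (mES H3K27me3), 4.62% to 45.3% (HSPC H2AK119ub), 11.99% to 23.8% (HSPC H3K27me3) and 26.4% to 33.9% (K562).

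With the replicate block, in which libraries of the same number are compared, 1 promoter was higher for mES H3K27me3, 20 for HSPC H2AK119ub and 18 in K562. The same-number deviations correlated between -0.13 and 0.03 over all genes, so the numbers give no sign of pairing. A crossed pairing for mES H3K27me3, added because that correlation was the -0.13, gave 5 lower and 3 higher.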
